A study of Homo sapiens with 6 samples.

Results

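The genes described here are 9 enzymes that make, recycle, use or degrade glutathione, or that keep protein thiols reduced: GCLC, GCLM, GSS, GSR, CTH, GPX1, GPX4, TXNRD1 and CHAC2. They were picked by gene symbol, and all 9 were found among the 58735 genes of the table. Messenger RNA was sequenced from cultures that the labels call pancreatic progenitor cells, differentiated from the human induced pluripotent stem cell line Ff-I01s01, whose genotype is given as WT. K-3 cultures received K-3 at 2 µM during the S3 step, between day 6 and day 8 (n = 3 libraries), and Control cultures passed through the same step and days without it (n = 3 libraries). K-3 is a code name, and the labels state nothing further about it. The study asked how K-3 alters the differentiation of these cells. All cultures share a single cell line. The labels do not say whether replicate libraries were differentiated apart from each other, so the p-values reflect a spread between libraries that may be technical.

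Glutathione is a tripeptide of glutamate, cysteine and glycine, and it is the main small thiol of animal cells. Glutamate-cysteine ligase, made of a catalytic subunit (GCLC) and a modifier subunit (GCLM), joins the first pair of amino acids in the rate-limiting step, and glutathione synthetase (GSS) adds glycine. Peroxidases such as GPX1 and GPX4 spend glutathione to reduce hydrogen peroxide and lipid peroxides, glutathione reductase (GSR) restores it with NADPH, and thioredoxin reductase (TXNRD1) runs a parallel thiol system on the same NADPH. A pair of transcription factors is known for acting on these genes: NRF2 (gene NFE2L2), released from its inhibitor KEAP1 by oxidants and electrophiles, and ATF4, the effector of the amino acid stress response. Pancreatic beta cells of rodents are known for low levels of several enzymes that remove peroxides.

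With K-3, mean transcript levels of the 9 genes lay between 80.2% (CTH) and 123% (CHAC2) of those in Control, and none of the 8 that could be tested passed the threshold in either direction. In limma on log2(FPKM + 1), with Benjamini-Hochberg adjustment over 12989 genes, 0 of 8 were higher and 0 of 8 were lower at an adjusted p under 0.05, where 1.14% of all tested genes were higher and 0.901% lower (2.04% together). FPKM is the number of sequenced fragments scaled for gene length and library size. At an unadjusted p under 0.05, TXNRD1 and GSR were higher and CTH was lower, against 11.7% of all tested genes higher and 10.4% lower (22.1% together). The values of these 3 genes also did not overlap between groups, as in 27.4% of all tested genes. TXNRD1, at 115% of its Control mean, passed the threshold only when the fragment counts behind the FPKM were tested with limma voom (adjusted p = 0.0472, where 2.89% of genes were called higher and 5.5% in either direction). In a voom fit that also took in lower genes, its adjusted p was 0.0453, where 2.01% of genes were called higher. The median log2 difference of the 8 genes was 0.05, and that of all tested genes was 0.01. In bulk samples, fewer cells of a type and less RNA per cell cannot be told apart.

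K-3 libraries held between 41876557 and 50245547 fragments in genes and Control libraries between 35371195 and 38809532, so depth ran higher with K-3 throughout. In a gene of 1 kb, 3 fragments equal 0.0591 to 0.0712 FPKM in K-3 libraries and 0.0772 to 0.0834 FPKM in Control libraries, counting error only. Of 11 markers fixed for pancreatic progenitors, 9 passed the minimum level and 0 of these passed the test with limma, while 4 were higher at an unadjusted p under 0.05, as were 11.7% of all tested genes. PDX1, the homeobox factor of pancreatic fate, averaged 22.2 ± 1.23 FPKM with K-3 and 14.3 ± 3.16 FPKM in Control (SD, n = 3 each; adjusted p = 0.0637), NKX6-1 was listed at 0 in every library, and PTF1A had 0 fragments with K-3 and 6 in Control. The 8 hepatoblast markers summed to 3186 to 3295 FPKM in K-3 libraries and 3136 to 3487 FPKM in Control libraries. Most of that sum was TTR (mean 1217 FPKM with K-3 and 1391 FPKM in Control) and AFP (855.0 and 874.1 FPKM). ALB averaged only 2.22 and 2.67 FPKM. TTR lay lower and APOA2 higher (441.6 and 357.3 FPKM) with K-3 without overlap, which was the case in 27.4% of all tested genes. Neither passed (limma adjusted p = 0.282 for TTR and 0.113 for APOA2). The 8 mesenchyme markers summed to 25.5 to 28.1 FPKM with K-3 and 24.0 to 26.3 FPKM in Control, and the 4 endothelial markers to 0.0414 to 0.126 FPKM with K-3 and 0.0362 to 0.111 FPKM in Control. Nearly all of the mesenchyme sum was PDGFRA (mean 20.4 FPKM with K-3 and 19.1 FPKM in Control) and COL1A1 (5.22 and 4.65 FPKM). The other mesenchyme markers were under the minimum level, with LUM and DCN at or near 0 in every library. The 6 pluripotency markers summed to 358.5 to 365.1 FPKM with K-3 and 358.7 to 391.6 FPKM in Control, nearly all of it LIN28A, while NANOG was at or near 0 in every library. The 5 intestinal markers summed to 39.6 to 41.6 FPKM with K-3 and 33.7 to 39.0 FPKM in Control. Among them CDX2, the intestinal homeobox factor, had 14.4, 13.0 and 12.9 FPKM in K-3 libraries, against 6.81, 10.9 and 5.31 FPKM in Control libraries, without overlap (log2 difference 0.78, unadjusted p = 0.00595, limma adjusted p = 0.0929). Most of the intestinal sum was VIL1, which went the other way and overlapped. VIL1 averaged 26.85 ± 1.76 FPKM with K-3 and 29.06 ± 1.73 FPKM in Control (log2 difference -0.11, limma adjusted p = 0.342). CDX1, CDH17 and LGALS4 were near 0 in both groups. The part of the makeup of the cultures in the results that follow was not tested.

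TXNRD1, GPX1 and GPX4 are selenoproteins, so their messages carry an in-frame TGA that is read as selenocysteine instead of stop. The coding sequence around that codon is shown because it is the shared feature of the 3 genes with the highest FPKM of the 9. The codon is in capitals, and the sequence was read from GENCODE 29 on build GRCh38. In GPX1 the codon lies in exon 1 of 2 (chr3:49358132-49358134, minus strand), in GPX4 in exon 3 of 7 (chr19:1105403-1105405, plus strand) and in TXNRD1 in the last of 15 exons (chr12:104348413-104348415, plus strand), where 1 more sense codon and the stop codon follow.
GPX1: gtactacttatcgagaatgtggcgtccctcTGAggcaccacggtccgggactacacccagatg
GPX4: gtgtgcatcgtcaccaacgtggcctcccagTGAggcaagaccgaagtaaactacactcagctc
TXNRD1: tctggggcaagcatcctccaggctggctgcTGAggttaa

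The 9 transcripts spanned a wide range of levels. By mean FPKM over the 6 libraries the order was GPX4, GPX1, TXNRD1, GSR, GSS, GCLC, GCLM, CTH and CHAC2. GPX4 lay above 97.6% of the tested genes, GPX1 above 96.9%, TXNRD1 above 95.4% and GSR above 90.2%. The synthesis enzymes sat near the middle of the transcriptome, with GSS above 56.3% of tested genes, GCLC above 47.9% and GCLM above 38.4%, and CTH lay above 35.6%. GPX4 exceeded GPX1 by 1.2 times in the mean and in 6 of 6 libraries, although the ranges of the genes overlapped. GCLM and CTH were the other neighbours whose ranges overlapped: GCLM was the higher in 3 of 3 K-3 libraries and in 1 of 3 Control libraries. Every other neighbouring pair was in the same order in 6 of 6 libraries without overlap, by ratios of the means between 1.28 (GSS over GCLC) and 4.32 (CTH over CHAC2). The largest step inside the tested set was from GSR to GSS, a ratio of 3.88. The order and the ranks depend on the gene lengths behind FPKM. TXNRD1, GPX1 and GPX4 were scaled to 6708, 1430 and 2019 bases, while their transcripts used for the codons above have 3930, 1151 and 919 bases. The order at transcript lengths was not computed. The plot of levels shows the order by FPKM, with the pair of groups close together at each gene.

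**Figure D1:**
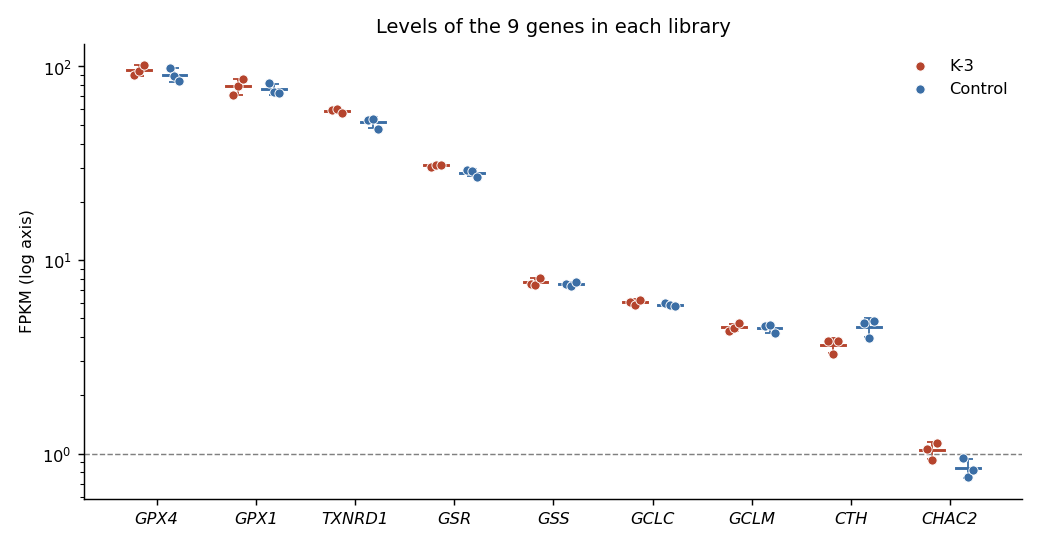
FPKM of each of the 9 genes in each library on a log axis, K-3 (red) left of Control (blue), ordered by mean level; points are libraries, short bars the mean and whiskers 1 SD (n = 3), and the dashed line is the minimum mean of 1 FPKM for testing. The gaps between genes are far wider than those between K-3 and Control, and CHAC2 is the gene whose mean lies under the dashed line.

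The 3 enzymes that build glutathione showed no difference beyond the spread between libraries. GCLC (chr6:53497341-53616970, minus strand) had 6.11, 5.89 and 6.25 FPKM in K-3 libraries 1, 2 and 3, against 5.97, 5.85 and 5.77 FPKM in Control libraries 1, 2 and 3. The K-3 and Control values overlapped, and the log2 difference was 0.04 with a 95% interval of -0.05 to 0.14 (adjusted p = 0.555). GCLM (chr1:93885205-93909456, minus strand) had 4.32, 4.44 and 4.72 FPKM in K-3 libraries, against 4.56, 4.63 and 4.18 FPKM in Control libraries. The highest and the lowest of the 6 GCLM values came from K-3 replicate 3 and Control replicate 3, and the groups overlapped (log2 difference 0.01, interval -0.11 to 0.13, adjusted p = 0.932). GSS (chr20:34928433-34956027, minus strand) had 7.54, 7.47 and 8.10 FPKM in K-3 libraries, against 7.54, 7.37 and 7.73 FPKM in Control libraries. These groups overlapped as well (log2 difference 0.03, interval -0.08 to 0.13, adjusted p = 0.771).

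The 95% intervals bound these differences closely on the scale of FPKM + 1: from -3.45% to 10.1% for GCLC, from -7.60% to 9.73% for GCLM and from -5.29% to 9.39% for GSS. Between 814 fragments (GCLM) and 2680 fragments (GCLC) stood behind each value of the ligase subunits, and between 1716 and 2364 behind those of GSS. The ratio of the catalytic to the modifier subunit was 1.41, 1.33 and 1.32 in K-3 libraries, against 1.31, 1.26 and 1.38 in Control libraries. It overlapped between groups, with a log2 difference of 0.04 (exact two-sided permutation test, p = 0.4, where 3 against 3 libraries allow no p under 0.1). GCLC transcripts outnumbered GCLM transcripts per length in every library. GCLC shares 6.12% of its exon bases with AL033397.1, which averaged 0.00107 FPKM.

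CTH, cystathionine gamma-lyase, makes cysteine from cystathionine in the last step of the transsulfuration pathway and so can feed glutathione synthesis from methionine. CTH (chr1:70411218-70439851, plus strand) had 3.81, 3.25 and 3.80 FPKM in K-3 libraries, against 4.75, 3.95 and 4.85 FPKM in Control libraries. The highest K-3 library lay just below the lowest Control library, so the groups did not overlap, which was the case with K-3 below Control in 12% of all tested genes. CTH averaged 3.62 ± 0.32 FPKM with K-3 and 4.52 ± 0.496 FPKM in Control (SD, n = 3 each), 80.2% of the Control mean. The log2 difference was -0.25 (SE 0.08, interval -0.45 to -0.06), and the adjusted p of 0.14 did not pass. Only 340 to 467 fragments stood behind each value, the fewest among the 8 tested genes. CTH is the single tested gene of the 9 with a negative difference as deposited, while GCLM was also negative with equal upper quartiles (-0.0036) and GCLM and GSS with equal sums of FPKM outside mitochondrial-encoded genes (-0.02 and -0.0029).

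Both reductases lay higher in every K-3 library than in any Control library, without passing the test. TXNRD1 (chr12:104215779-104350305, plus strand), the cytosolic enzyme that reduces thioredoxin, had 59.7, 60.0 and 57.9 FPKM in K-3 libraries, against 53.1, 53.7 and 47.8 FPKM in Control libraries. All K-3 libraries lay above all Control libraries, as they did in 15.4% of all tested genes, and Control replicate 3 stood lowest. The means were 59.2 ± 1.18 FPKM with K-3 and 51.5 ± 3.25 FPKM in Control, with a log2 difference of 0.20 (SE 0.05, interval 0.07 to 0.33, unadjusted p = 0.00753, adjusted p = 0.102). Over 15 alternative settings the log2 difference of TXNRD1 ranged from 0.15 to 0.23 and its adjusted p from 0.0453 to 0.283, under 0.05 in the 2 voom fits. At least 11529 fragments stood behind each value.

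GSR (chr8:30678061-30727999, minus strand), which returns oxidised glutathione to its reduced form, had 30.4, 31.2 and 31.1 FPKM in K-3 libraries, against 29.2, 28.8 and 26.9 FPKM in Control libraries. K-3 libraries again lay above Control libraries without overlap. The gap between the nearest pair, K-3 replicate 1 and Control replicate 1, was narrower than for TXNRD1. GSR averaged 30.9 ± 0.424 FPKM with K-3 and 28.3 ± 1.21 FPKM in Control, 109% of the Control mean, with a log2 difference of 0.12 (SE 0.04, interval 0.02 to 0.22, adjusted p = 0.168). Its adjusted p ranged from 0.108 to 0.462 over 15 alternatives, with differences between 0.09 and 0.14. The ratio of TXNRD1 to GSR was 1.97, 1.93 and 1.86 in K-3 libraries, against 1.82, 1.86 and 1.77 in Control libraries.

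**Figure D2:**
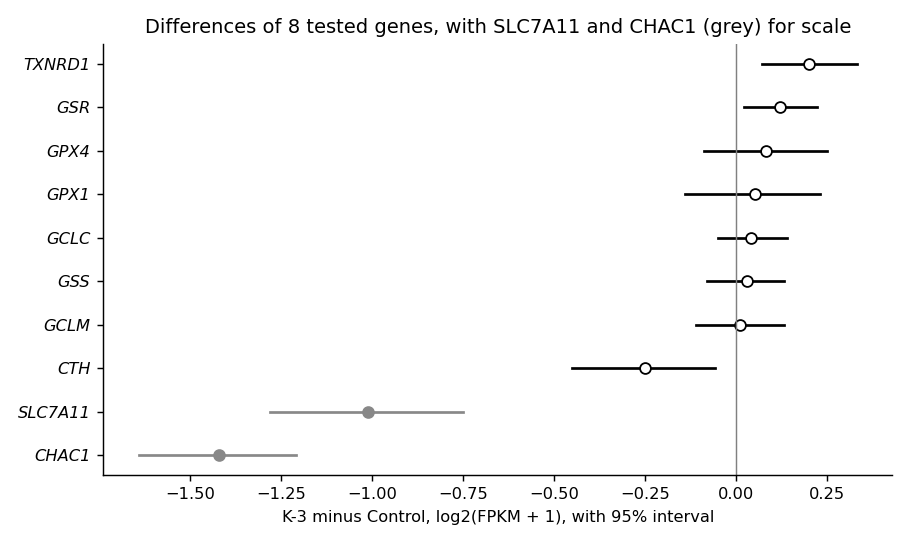
Difference of log2(FPKM + 1), K-3 minus Control, for the 8 tested genes (black) and for CHAC1 and SLC7A11 (grey), with 95% intervals; a filled point passed an adjusted p of 0.05 and an open point did not. TXNRD1 at 0.20, GSR at 0.12 and CTH at -0.25 are the members whose intervals leave out 0, all with open points, while CHAC1 at -1.42 and SLC7A11 at -1.01 are filled.

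The plot of differences sets these values on a common axis. The intervals of the synthesis enzymes include 0 and reach no farther than 0.14 from it. No interval of the 8 genes reaches 0.5 in either direction, against differences beyond -1 for CHAC1 and SLC7A11.

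The peroxidases had the highest FPKM of the 9 genes, and their values overlapped between the groups. GPX4 (chr19:1103926-1106791, plus strand), which reduces lipid peroxides in membranes and guards against ferroptosis, had 90.2, 94.6 and 102.2 FPKM in K-3 libraries, against 98.3, 89.5 and 84.0 FPKM in Control libraries. The log2 difference was 0.08 (interval -0.09 to 0.25, adjusted p = 0.561). GPX1 (chr3:49357171-49358600, minus strand), which reduces hydrogen peroxide in the cytosol, had 71.1, 79.8 and 85.8 FPKM in K-3 libraries, against 81.8, 74.1 and 72.8 FPKM in Control libraries. The log2 difference was 0.05 (interval -0.14 to 0.23, adjusted p = 0.763). The intervals allow differences from -6.19% to 18.9% for GPX4 and from -9.08% to 17.3% for GPX1 on the scale of FPKM + 1.

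GPX1 and GPX4 ranked the libraries alike within each group. Both were highest in K-3 replicate 3 and in Control replicate 1, the libraries of each group with the fewest genes above 0: 26786 against 28539 and 27290 in the other K-3 libraries, and 26735 against 29043 and 28435 in the other Control libraries. The part of that library property in the peroxidase levels was not tested. The processed pseudogene GPX1P1 followed the same ranking, with 4.36, 5.49 and 7.20 FPKM in K-3 libraries and 6.48, 5.10 and 4.96 FPKM in Control libraries. Fragments of GPX1 can be assigned to that near-identical copy, so the GPX1 level is uncertain to that extent, while a further copy, GPX1P2, was listed at 0 throughout. The annotation gives GPX1 the biotype polymorphic pseudogene although the enzyme is made.

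CHAC2 (chr2:53767792-53775196, plus strand) is a gamma-glutamylcyclotransferase that degrades glutathione slowly, and its relative CHAC1 (chr15:40952962-40956519) is a more active form and an ATF4 target. CHAC2 had 1.06, 0.927 and 1.13 FPKM in K-3 libraries, against 0.952, 0.760 and 0.821 FPKM in Control libraries. The groups overlapped at K-3 replicate 2 and Control replicate 1. Its mean over the 6 libraries, 0.942 FPKM, was under the minimum of 1 FPKM, so it was not tested. Its values rest on 39 to 71 fragments a library, 187 in all with K-3 and 126 in Control. Without a minimum level the log2 difference was 0.14 (limma, adjusted p = 0.561). With voom on genes of at least 10 fragments in 3 libraries it was 0.29 (limma voom, adjusted p = 0.5), a setting chosen after seeing the data.

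CHAC1 had 0.364, 0.415 and 0.219 FPKM in K-3 libraries, against 2.77, 2.31 and 2.63 FPKM in Control libraries. The groups were far apart, and 94 fragments in all stood behind the K-3 values, against 598 behind those of Control. CHAC1 fell to 12.9% of its Control mean, with a difference of -1.42 on the log2(FPKM + 1) scale (SE 0.09, limma adjusted p = 0.00741). The pseudocount shrinks the difference of so low a gene: it was -2.65 with a pseudocount of 0.1 and -2.97 with limma voom. The call was lost without K-3 replicate 2 (-1.47, limma adjusted p = 0.0606), without a minimum level (limma adjusted p = 0.0644) and with the replicate block (limma adjusted p = 0.115). It held in 11 of 14 alternatives. The ratio of CHAC1 to CHAC2 was 0.344, 0.448 and 0.194 in K-3 libraries, against 2.92, 3.04 and 3.21 in Control libraries. CHAC2 was thus the more abundant of the pair per length in every K-3 library, and CHAC1 the more abundant in every Control library.

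**Figure D3:**
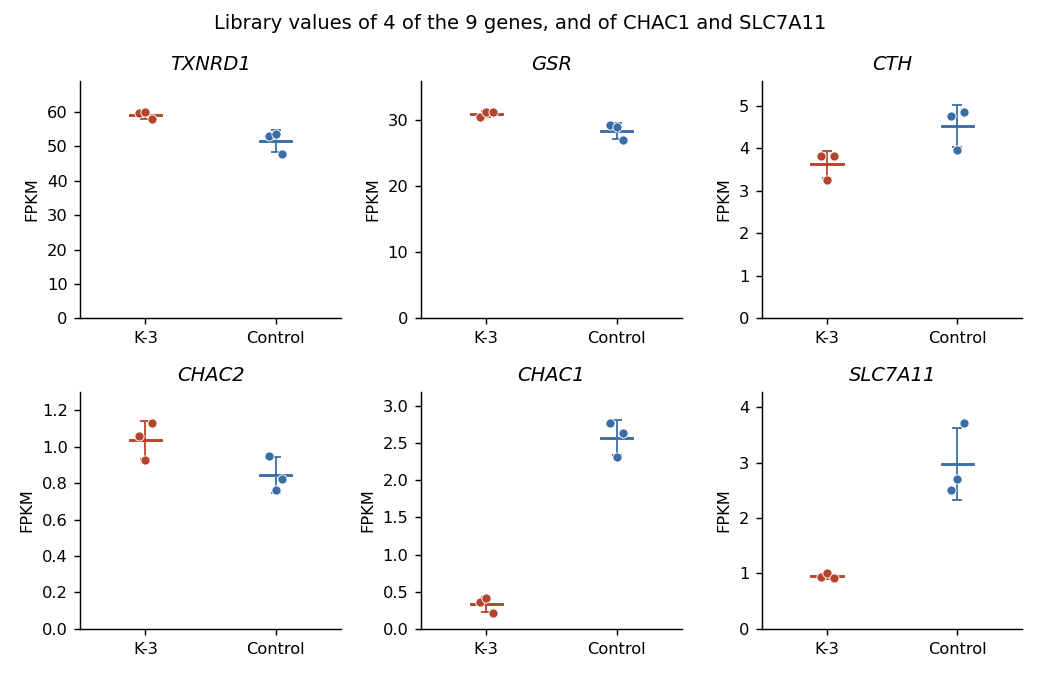
FPKM in each library of TXNRD1, GSR, CTH and CHAC2 and of CHAC1 and SLC7A11, K-3 (red) left of Control (blue), each axis from 0; points are libraries, horizontal bars the mean and whiskers 1 SD (n = 3). TXNRD1 and GSR lie higher and CTH lower with K-3 by small steps, CHAC2 overlaps, and CHAC1 and SLC7A11 fall to 12.9% and 32.0% of their Control means.

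Glutathione synthesis also draws on cystine taken up through the exchanger xCT, whose light chain is SLC7A11 and heavy chain SLC3A2. SLC7A11 had 0.931, 1.01 and 0.918 FPKM in K-3 libraries, against 2.50, 2.71 and 3.72 FPKM in Control libraries. SLC7A11 fell to 32.0% of its Control mean, with a difference of -1.01 on the log2(FPKM + 1) scale (SE 0.11, limma adjusted p = 0.019), and of -1.53 with a pseudocount of 0.1 and -1.62 with limma voom. Leaving out K-3 replicate 1, 2 or 3 ended that call (limma adjusted p = 0.0792, 0.0921 and 0.0813), which held in 9 of 14 alternatives. SLC3A2 averaged 59.5 ± 4.58 FPKM with K-3 and 80.5 ± 8.44 FPKM in Control (SD, n = 3 each; log2 difference -0.43, adjusted p = 0.0586), which did not pass here but did in 7 of 15 alternatives. The ratio of SLC7A11 to CTH, the uptake and the synthesis route to cysteine, was 0.244, 0.311 and 0.241 in K-3 libraries, against 0.526, 0.687 and 0.767 in Control libraries. SLC7A11 shares 8.97% of its exon bases with its antisense gene SLC7A11-AS1, and whether strand was used in counting is not known here.

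Among 130 genes of the wider lists of redox and sulfur metabolism, 106 were tested, and their median log2 difference was 0.03. Of the 106, 0 rose, 3 fell and 103 did not pass, where 1.14% of all tested genes rose and 0.901% fell. The 3 that fell were CHAC1, SLC7A11 and SELENOI, the ethanolamine phosphotransferase, which is a selenoprotein. SELENOI averaged 12.5 ± 0.293 FPKM with K-3 and 14.5 ± 0.21 FPKM in Control (log2 difference -0.21, limma adjusted p = 0.0458). Its call was lost without Control replicate 2 or 3 or any K-3 library, at limma adjusted p-values of 0.0661, 0.17, 0.12, 0.17 and 0.12. The call was also lost with equal sums of FPKM outside mitochondrial-encoded genes (limma adjusted p = 0.0526), and it held in 7 of 15 alternatives. At an unadjusted p under 0.05, 15 of the 106 were higher and 14 lower, against 11.7% and 10.4% of all tested genes. With limma voom 3 of the 106 were higher and 6 lower, against 2.89% and 2.6% of all tested genes.

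Of 7 tested genes for glutathione breakdown and the gamma-glutamyl cycle, CHAC1 fell and 6 did not pass (median -0.11). GGCT, the cyclotransferase that acts on gamma-glutamyl amino acids, averaged 14.4 ± 0.633 FPKM with K-3 and 12.5 ± 0.881 FPKM in Control (log2 difference 0.19, adjusted p = 0.129). It shares 27.6% of its exon bases with AC005154.5. Of 14 tested genes for cysteine supply and use, SLC7A11 fell and 13 did not pass (median -0.03). MAT2A, which makes S-adenosylmethionine, averaged 36.0 ± 0.567 FPKM with K-3 and 42.5 ± 3.27 FPKM in Control (-0.23, adjusted p = 0.0912), which passed in 1 of 15 alternatives, and 12.4% of its exon bases are shared with GGCX. Of 7 glutathione transport genes, 0 passed. ABCC4, an export pump, averaged 8.17 ± 0.0674 FPKM with K-3 and 9.31 ± 0.142 FPKM in Control (-0.17, adjusted p = 0.061), and passed in 6 of 15 alternatives.

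None of 13 other peroxidases, peroxiredoxins and dismutases passed (median 0.06), nor did any of 12 thioredoxins, glutaredoxins and methionine sulfoxide reductases (0.02), 12 glutathione S-transferases (0.08) or 10 genes of NADPH supply (0.08). Catalase (CAT) averaged 15.6 ± 0.268 FPKM with K-3 and 17.8 ± 0.895 FPKM in Control (-0.18, adjusted p = 0.0919). TXNIP, which binds and inhibits thioredoxin, had 186.8, 192.0 and 184.5 FPKM in K-3 libraries, against 164.1, 160.6 and 161.7 FPKM in Control libraries. These groups lay apart, at a log2 difference of 0.21 and an adjusted p of 0.062. TXNIP passed in 4 of 15 alternatives, at 0.0134 with limma voom. TXNRD3, a further thioredoxin reductase, went the other way from TXNRD1. It had 5.176, 5.414 and 5.806 FPKM in K-3 libraries, against 6.107, 6.259 and 5.811 FPKM in Control libraries. Those groups barely missed overlapping (log2 difference -0.13, limma unadjusted p = 0.0404, adjusted p = 0.208), and 12% of all tested genes lay below without overlap. IDH2, a mitochondrial source of NADPH, averaged 69.5 ± 1.95 FPKM with K-3 and 62.0 ± 3.43 FPKM in Control (0.16, adjusted p = 0.14). MGST2, a membrane-bound glutathione transferase, averaged 11.6 ± 0.469 FPKM with K-3 and 13.9 ± 1.61 FPKM in Control (-0.24, adjusted p = 0.152). It passed in 1 of 15 alternatives and shares 7.92% of its exon bases with MAML3.

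Of the 6 tested factors that insert selenocysteine, 0 passed. EEFSEC, the elongation factor that brings selenocysteine to the TGA codons shown above, averaged 6.77 ± 0.398 FPKM with K-3 and 5.53 ± 0.311 FPKM in Control (0.25, adjusted p = 0.0668), passed in 3 of 15 alternatives and shares 15.3% of its exon bases with RUVBL1. Among 17 other tested selenoproteins SELENOI fell and 16 did not pass, with a median of 0.06. DIO1, which activates thyroid hormone, averaged 4.28 ± 0.61 FPKM with K-3 and 2.98 ± 0.423 FPKM in Control (0.41, adjusted p = 0.0876), and passed in 2 of 14 alternatives.

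The regulators of the pathway were also measured. NFE2L2 had 24.1, 25.3 and 24.3 FPKM in K-3 libraries, against 25.2, 24.7 and 23.8 FPKM in Control libraries, with an interval of -0.10 to 0.09 (adjusted p = 0.985). KEAP1 averaged 20.1 ± 1.4 FPKM with K-3 and 18.1 ± 0.991 FPKM in Control (0.14, adjusted p = 0.229). None of the 7 tested NRF2 regulators passed. Of 8 other tested NRF2 target genes, SLC7A11 fell and 7 did not pass (median 0.10). FTH1, the ferritin heavy chain, averaged 306.3 ± 5.71 FPKM with K-3 and 260.4 ± 17.7 FPKM in Control (0.24, adjusted p = 0.0992). It passed in 3 of 15 alternatives and shares 62.4% of its exon bases with BEST1.

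ATF4 itself fell to 84.0, 84.8 and 84.3 FPKM in K-3 libraries, against 116.4, 105.8 and 108.0 FPKM in Control libraries (log2 difference -0.38, SE 0.05, limma adjusted p = 0.0254). Its adjusted p in limma was 0.0885 without Control replicate 3, and 0.0975, 0.117 and 0.0957 without K-3 replicates 1, 2 and 3. The call of ATF4 held in 9 of 15 alternatives. Of 13 tested genes of the ATF4 response, 8 fell, against 0.901% of all tested genes, 5 did not pass and the median was -0.55. A positive difference was found in 2 of the 13, among them PHGDH at 0.06 (limma adjusted p = 0.456). The 8 that fell were ATF4, CHAC1, DDIT3, SESN2, PSAT1, MTHFD2, SLC7A11 and DDIT4. The count that fell was 5 without Control replicate 3, 0 without K-3 replicate 2 and 2 when either other K-3 library was left out. Exon bases are shared with DDIT4-AS1 in DDIT4 (41.2%), with MARS in DDIT3 (27.2%) and with SLC4A5 in MTHFD2 (27.2%). This list was assembled with its direction in these libraries known, so its count is not independent evidence of that direction. CTH, also described as an ATF4 target, was not put in it and stood at -0.25, within the range of the redox genes that did not pass.

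**Figure D4:**
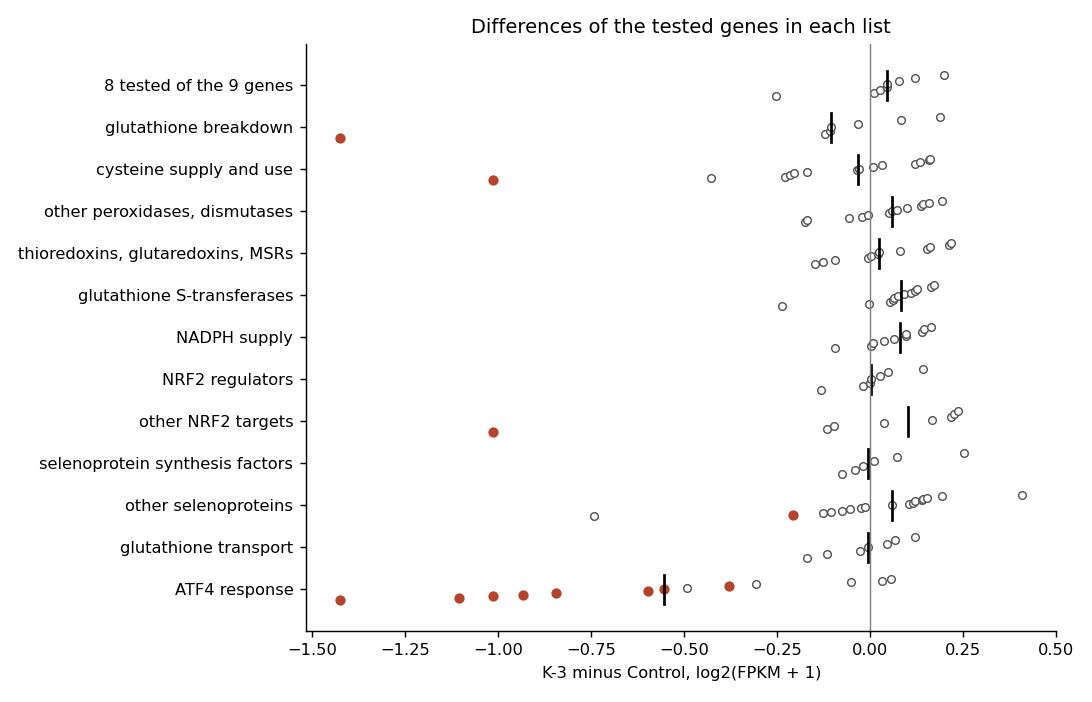
Difference of log2(FPKM + 1), K-3 minus Control, for every tested gene of each list, a row per list; filled points passed an adjusted p of 0.05, open points did not, vertical bars are medians, and height within a row only separates the points. SLC7A11 appears in 3 rows and CHAC1 in 2; outside the ATF4 response row the filled points are these genes and SELENOI, and the 8 tested genes lie between -0.25 and 0.20.

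The plot of the lists places the 8 tested genes in the top row. Their median of 0.05 stands beside 0.02 for the thioredoxins, 0.06 for the other peroxidases, 0.08 for NADPH supply and -0.55 for the ATF4 response.

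The promoters are shown for genes that carry, or lack, the core motif of the factors named above within the windows searched. RefSeq windows on build GRCh38.p14, which run from 250 bases before a listed start site to 50 bases after it, were matched by symbol for 7 of the 9 genes and for CHAC1. Both strands were searched for TGACNNNGC, the core of the antioxidant response element bound by NRF2, and for TGATGNAA, the core of the C/EBP-ATF element bound by ATF4 dimers. The first was in 13.3% of 34943 windows of all genes and the second in 3.62%. Counted by gene, over all windows of each, these shares were 16.1% and 4.47% of 27167 genes. The part before the start site is printed, 5′ to 3′ on the gene's strand, with matches in capitals: TXNRD1 (second window, chr12:104286782-104287031, plus strand), GCLM (chr1:93909431-93909680, minus strand), CTH (chr1:70411018-70411267, plus strand), CHAC2 (first window, chr2:53767533-53767782, plus strand) and CHAC1 (chr15:40953221-40953470, plus strand).
TXNRD1: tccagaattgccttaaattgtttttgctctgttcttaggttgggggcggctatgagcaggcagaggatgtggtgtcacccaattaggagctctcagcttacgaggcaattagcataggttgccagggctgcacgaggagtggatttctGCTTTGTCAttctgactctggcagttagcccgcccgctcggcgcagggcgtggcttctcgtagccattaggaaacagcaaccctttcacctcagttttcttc
GCLM: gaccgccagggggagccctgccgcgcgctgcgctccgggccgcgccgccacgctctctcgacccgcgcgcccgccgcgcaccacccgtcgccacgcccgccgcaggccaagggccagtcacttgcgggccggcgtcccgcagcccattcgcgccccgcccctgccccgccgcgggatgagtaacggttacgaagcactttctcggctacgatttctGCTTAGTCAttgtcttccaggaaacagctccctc
CTH: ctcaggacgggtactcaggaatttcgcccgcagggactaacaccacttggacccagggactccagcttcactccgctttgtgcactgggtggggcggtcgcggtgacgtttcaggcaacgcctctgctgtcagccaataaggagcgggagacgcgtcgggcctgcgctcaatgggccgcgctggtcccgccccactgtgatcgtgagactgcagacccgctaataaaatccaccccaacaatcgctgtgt
CHAC2: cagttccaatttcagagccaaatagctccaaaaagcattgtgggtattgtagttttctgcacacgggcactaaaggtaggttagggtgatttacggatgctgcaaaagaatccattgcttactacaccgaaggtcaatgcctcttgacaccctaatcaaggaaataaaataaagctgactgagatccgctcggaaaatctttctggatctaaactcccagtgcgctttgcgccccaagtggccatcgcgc
CHAC1: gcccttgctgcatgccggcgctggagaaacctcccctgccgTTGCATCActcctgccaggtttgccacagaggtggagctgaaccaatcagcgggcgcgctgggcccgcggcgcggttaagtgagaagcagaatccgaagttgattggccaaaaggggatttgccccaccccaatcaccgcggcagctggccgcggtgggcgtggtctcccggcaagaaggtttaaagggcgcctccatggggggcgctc

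In the TXNRD1 window the match to TGACNNNGC was on the minus strand and began 102 bases before the start site, and the other TXNRD1 window held 2 matches. In GCLM the match was also on the minus strand, 34 bases before the start site. In CHAC1 the match to TGATGNAA was on the minus strand, 209 bases before the start site. The windows of GCLC, CTH, GPX1, GPX4 and CHAC2 held neither motif. Bases outside these windows were not searched, so the genes may carry either motif elsewhere. The windows with the NRF2 core thus belonged to TXNRD1, at a log2 difference of 0.20 that did not pass, and to GCLM, at 0.01. A match describes these letters in this window and does not show that a factor binds there.

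The genes whose pattern over the 6 libraries was most like that of a member were taken from 11181 protein-coding genes by the root mean square difference of centred log2(FPKM + 1). For TXNRD1, which itself varied by 0.113 around its mean, these were STRADB (0.0116), PRUNE1 (0.0159) and GPAM (0.0176). For GSR, which varied by 0.0709, they were PFN2 (0.01), TRMO (0.0106) and MPI (0.0126). For CTH, which varied by 0.16, they were MGST2 (0.041), RHOU (0.0442) and PCDH10 (0.0502). All 9 of these genes lacked an adjusted p under 0.05 for K-3 against Control. They were chosen for their likeness to members that did not pass, so this largely follows from the choice.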

How the data were processed

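The authors deposited FPKM per gene and library. Per the submitters' processing notes, HISAT2 2.0.5, featureCounts 1.5.0-p3, DESeq2 1.20.0 and the build GRCh38 were used, with no settings given, and the sources used here do not give the strand setting. All 58735 gene IDs and positions equal GENCODE release 29. FPKM times gene length gave whole fragments for 100% of values within 1e-06, and these fragments were used for depth and for limma voom. The chi-square per degree of freedom between libraries of a group was 6.0 to 15.6, so no library was a copy of another.

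The 12989 genes that averaged 1 FPKM or more were tested with limma 3.58.1 (trend, R 4.3.3) on log2(FPKM + 1), two-sided, with Benjamini-Hochberg adjustment and a threshold of 0.05. Fold changes on this scale understate low genes. The 9 genes, the lists and the tests were chosen with earlier results of these data known. Named beyond the 9 genes could be, per list, genes past the threshold and up to 3 with the smallest p, plus CHAC1, SLC7A11, NFE2L2, KEAP1 and ATF4, and up to 3 genes most like each of the 3 members with the smallest p. GPX1P1 and GPX1P2 were added as copies of GPX1. The labels do not say whether replicate numbers pair libraries. Deviations of same-numbered libraries correlated at -0.364, -0.034 and -0.113, and those of unlike-numbered libraries at -0.27 to 0.331. These correlations cannot exclude a shared batch. The main test was unpaired because the labels give no pairing, and a replicate block was an alternative. Alternatives changed the pseudocount, minimum, scaling, genes tested, block, test or libraries.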

Additional observations from a re-analysis of the deposited data

How the results depend on the processing

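For the 8 tested genes, 117 values under alternatives were computed, of which 108 kept direction and side of the threshold. TXNRD1 passed in 2 (adjusted p = 0.0472 with limma voom and 0.0453 with voom on genes of at least 10 fragments in 3 libraries, a setting chosen after seeing the data). The log2 difference changed sign in 7, all close to 0: GCLM (-0.03 without Control replicate 3, -0.02 when K-3 replicate 3 was left out, in a range of -0.03 to 0.03 when a library was left out, -0.0036 with equal upper quartiles, -0.02 with equal sums of FPKM leaving out mitochondrial-encoded genes), GSS (-0.0068 without K-3 replicate 3, up to 0.04 without another library, -0.0029 with those equal sums) and GPX1 (-0.02 without K-3 replicate 3, up to 0.12 without another). NFE2L2 changed sign without Control replicate 1 (0.02) or 2 (0.0017), and without K-3 replicate 1 (0.01) or 3 (0.0059). The cause was not tested. CTH and GCLM are under a minimum of 5 FPKM, and GPX1 is not among protein-coding genes, so these have no value there.

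Counts moved more. Over all genes, 148 higher and 117 lower became 0 and 0 without a minimum, 237 and 170 at 5 FPKM, 376 and 338 with voom, 380 and 358 with voom at 10 fragments, and 405 and 289 among protein-coding genes; leaving out a library gave 0 to 271 higher and 0 to 446 lower, the fewest without a K-3 library or Control replicate 3 (1 and 10) and the most without Control replicate 1 or 2. With the replicate block, 0 genes passed, over all genes and in every list, and whether the numbers pair the libraries is not known. Members higher were 1 in both voom fits. Redox and sulfur genes higher (0) became 1 at 5 FPKM and 3 with voom, voom at 10 fragments or protein-coding genes, and 0 to 3 without a library. Those lower (3) became 0 without a minimum, 5 with equal upper quartiles, 6 with voom, 5 with voom at 10 fragments and 5 with protein-coding genes, and 0 to 6 without a library. ATF4 response genes lower (8) became 0 without a minimum, and 0 to 10 without a library. The log2 difference of the GCLC to GCLM ratio stayed between 0.01 and 0.07 under its alternatives.

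At 3 libraries a group, differences that lie inside the same printed interval cannot be told apart. Among the tested members, the intervals of TXNRD1, GSR and CTH leave out 0, but none of these genes passed after adjustment in limma on log2(FPKM + 1). At 39 to 71 fragments a library, CHAC2 was too shallow for a narrow estimate.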
